A study of Homo sapiens with 18 samples.

Results

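Genes of the snaR family of small noncoding RNAs other than snaR-A were followed in small RNA libraries of HEK293T cells, a human embryonic kidney line, with and without knockdown of SSB. Every row of the count table whose name begins with SNAR and a letter from B to I was taken, and counts were summed within each letter. These were 14 of 175935 rows, in 8 subfamilies, and 14 further rows carried snaR-A names. All 14 member rows had at least 1 count, and together they held 2300 counts over 18 libraries against 222156 for snaR-A. Cells had been transfected for 48 h with a scramble siRNA (control) or an siRNA against SSB (siSSB), and RNA was taken from whole cells (total), nuclei (nuc) or cytoplasm (cyto). The resulting 6 groups had 3 replicates each, all from a transient transfection of the same cell line, and all libraries are labelled Plus_PNK.

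The snaR genes are short, GC-rich genes transcribed by RNA polymerase III (Pol III), and their RNAs fold into a double-stranded hairpin. SSB encodes La, a chaperone that holds the U-rich 3′ end left when Pol III terminates in a run of T. The best known member, snaR-A, is abundant in immortalised cells. Less is known of the other subfamilies, which share much of its sequence and lie mostly on chromosome 19, with snaR-B, snaR-C and snaR-D in or beside the snaR-A clusters.

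The table lists 12 of the 14 members on chromosome 19, with SNAR-H on chromosome 2 and SNAR-I on chromosome 3. Each row is 165 to 178 nt long and reaches 20 to 25 nt beyond the annotated gene at either end. Names in the table differ from those of RefSeq. The name SNAR-B1 stands on 2 rows, which are SNAR-B1 and SNAR-B2 in RefSeq, and SNAR-C5 stands on 3 rows, which are SNAR-C1, SNAR-C2 and SNAR-C5. RefSeq symbols are used here. The sequences below are the hg38 reference at the RefSeq (GRCh38.p14) gene coordinates, read 5′ to 3′ on the gene strand. They are the genes that hold most of the counts, with SNAR-A3 of the abundant subfamily for comparison. Capitals mark bases that differ from SNAR-B1 in a pairwise global alignment, so that SNAR-B1 itself is all in lower case and bases missing from the other gene do not show.
SNAR-B1 (chr19:50133745-50133864, minus strand; SNAR-B2 at chr19:50139118-50139237 is identical): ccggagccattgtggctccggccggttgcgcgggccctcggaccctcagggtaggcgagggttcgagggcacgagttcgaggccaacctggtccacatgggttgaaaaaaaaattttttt
SNAR-C3 (chr19:47950296-47950414, plus strand): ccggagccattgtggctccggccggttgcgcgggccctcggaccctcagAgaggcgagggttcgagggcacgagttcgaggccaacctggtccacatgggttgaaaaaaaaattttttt
SNAR-C4 (chr19:47939541-47939660, plus strand): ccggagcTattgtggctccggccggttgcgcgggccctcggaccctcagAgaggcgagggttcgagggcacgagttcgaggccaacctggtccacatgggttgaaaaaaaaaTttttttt
SNAR-C5 (chr19:47913051-47913170, plus strand; SNAR-C1 and SNAR-C2 are identical): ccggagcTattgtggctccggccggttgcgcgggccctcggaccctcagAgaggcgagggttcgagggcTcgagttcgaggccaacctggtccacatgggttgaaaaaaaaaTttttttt
SNAR-E (chr19:46830585-46830704, minus strand): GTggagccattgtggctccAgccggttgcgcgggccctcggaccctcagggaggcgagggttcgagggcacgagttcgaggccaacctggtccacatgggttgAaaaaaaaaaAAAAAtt
SNAR-A3 (chr19:47923779-47923899, plus strand): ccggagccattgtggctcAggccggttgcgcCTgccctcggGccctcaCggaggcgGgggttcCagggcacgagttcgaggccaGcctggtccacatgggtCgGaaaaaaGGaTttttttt

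SNAR-B1 and SNAR-C3 were 98.3% identical over the alignment, with 1 mismatch and 1 base missing from SNAR-C3. SNAR-C4 was 96.7% and SNAR-C1, SNAR-C2 and SNAR-C5 were 95.9% identical to SNAR-B1. The other subfamilies were further away, from 92.6% for SNAR-H to 81.4% for SNAR-G1, and SNAR-A3 stood at 88.5%. SNAR-I is listed on the plus strand of chromosome 3, but it was the reverse complement of that strand that aligned to SNAR-B1, with 90.2% identity. SNAR-B1 ended in 9 A and 7 T, and 7 or 8 T closed every other gene read on its family strand except SNAR-E, which ended in 15 A and 2 T. The last 50 bases of the SNAR-E row, flank included, held no longer run of T than 2.

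The letters GTTCGANNC, the form in which the B box of internal Pol III promoters was searched here, occurred on the family strand of SNAR-B1, SNAR-B2, the 5 SNAR-C genes, SNAR-E, SNAR-F, SNAR-G2 and the reverse complement of SNAR-I. They were not in the genes of SNAR-D, SNAR-G1 or SNAR-H. On either strand, 13.6% of the 10469 table rows of 150 to 200 nt held these letters. The snaR-B, snaR-C and snaR-E genes, which gave nearly all the counts below, thus all held the motif, as did SNAR-A3, and so did genes with almost no counts.

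Near-identical copies cannot be told apart by short reads, and how reads with several positions were placed is not given in the sources used here for these libraries. Of the 20-nt windows in the SNAR-B1 row, 80.3% also occurred in a row of another letter from C to I and 14.3% in a snaR-A row. For 30-nt windows the shares were 68.6% and 3.65%, and for 50-nt windows 44.4% and 0%. A read of 50 nt could thus separate snaR-B from snaR-A but often not from another letter. The identical loci SNAR-B1 and SNAR-B2 held 776 and 799 counts over all libraries, so SNAR-B1 had 49.3% of their sum (exact 95% binomial interval 46.8% to 51.8%, covering counting error only). Single loci within B or C are therefore uncertain. The split between letters is uncertain too: 68.4% of the 30-nt windows in the SNAR-C3 row also occurred in a row of another letter from B to I. Results are given for the subfamily sums, but the snaR-B and snaR-C sums may share reads and are not independent of each other. The member sums may also hold reads of snaR-A, which had 222156 counts against 2300 for the members. How many they hold was not tested, and every comparison of members with snaR-A below carries this limit.

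Column sums ranged from 21565995 to 158244813 counts and are not numbers of reads, since a read inside overlapping features counts in each. Features of at most 500 nt summed to 2468129 to 7970923 counts per library. snoRNAs, which reside in the nucleus, made 76.0% to 82.4% of that sum in nuc libraries and 7.96% to 11.8% in cyto libraries. The table had no row named SSB, so the knockdown was not checked on its target and siSSB names libraries by label. A noncoding row that covers SSB exons, HSALNG0020274, ran from 12 to 19 counts in total RNA of control cells and from 547 to 1267 with siSSB, and so stood higher in the knockdown. In cytoplasm it ran from 25 to 32 counts in control and from 983 to 3304 with siSSB, and in nuclei from 1 to 5 and from 5 to 14. The row also overlaps a METTL5 exon, and whether its counts come from SSB transcripts was not tested. Of the 18 libraries, control nuc replicate 2 stood apart for snaR: it had the highest snaR-B, snaR-C and snaR-E counts of its group and the lowest snaR-A count, 4914 against 9259 and 12773 in the other control nuc libraries. The differences that rest on it are given with and without it, and the CPM levels of control nuc include it. The libraries report relative amounts, so that fewer intact cells and less RNA per cell cannot be told apart.

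The snaR-B genes led the family. Control total libraries had 208, 66 and 63 counts of them, and siSSB total libraries 28, 21 and 42. Nuclei gave 126, 470 and 156 counts with the scramble siRNA and 29, 47 and 64 with siSSB, and cytoplasm gave 43, 47 and 58 with scramble and 58, 38 and 11 with siSSB. Control nuc replicate 2 was thus highest in counts, followed by control total replicate 1, and siSSB total libraries were among the lowest.

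The 5 snaR-C genes came second. Their sum was 56, 25 and 30 counts in control total libraries, against 6, 9 and 15 with siSSB. For nuc libraries it was 57, 116 and 48 in control, against 7, 17 and 16 with siSSB, and for cyto libraries 14, 19 and 21, against 35, 6 and 5. Of the siSSB cyto replicates, replicate 1 lay above every control and the others below. Within the subfamily the counts were uneven: SNAR-C3 had 224 and SNAR-C4 187 over the 18 libraries, whereas the 3 identical loci SNAR-C5, SNAR-C2 and SNAR-C1 had 35, 32 and 24. SNAR-C4 itself had 24, 9 and 6 counts in total RNA of control cells, against 0, 2 and 7 with siSSB. Nuclei had 24, 43 and 25, against 3, 6 and 8 with siSSB, and cytoplasm 4, 6 and 8, against 7, 3 and 2. Its control and siSSB values stood apart in nuclei and overlapped in the other RNA fractions.

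SNAR-E, the only gene of its letter, had 178 counts in all. Total RNA gave 29, 5 and 10 of them in control, against 1, 2 and 1 with siSSB. Nuclei gave 13, 51 and 21, against 5, 5 and 8, and cytoplasm 6, 3 and 9, against 7, 1 and 1. The siSSB total libraries all lay at or below the floor of 3 counts used here. The remaining 6 rows were near the detection limit: SNAR-H had 15, SNAR-D 14, SNAR-G1 9, SNAR-I 5, and SNAR-F and SNAR-G2 1 count each over 18 libraries. No library had more than 4 counts of any of them, so no difference in these genes was detectable at this depth.

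**Figure D1:**
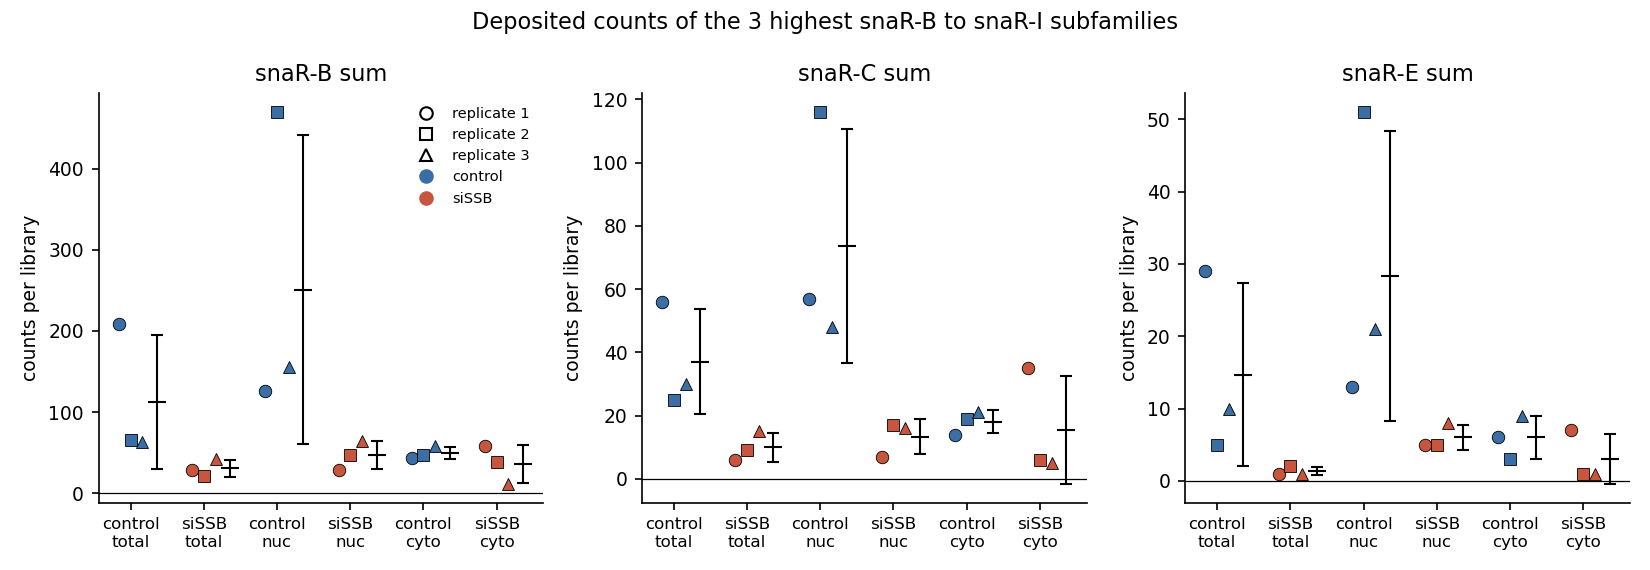
Deposited counts per library (vertical axes, unscaled) of the snaR-B, snaR-C and snaR-E sums in the 6 groups, with control in blue and siSSB in red, 1 symbol for each replicate, and mean ± SD as black bars (n = 3). Control nuc replicate 2 is the highest library in all 3 panels, at 470, 116 and 51 counts.

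Per length, the order of SNAR-B2, SNAR-B1, SNAR-C3, SNAR-C4 and SNAR-E was the same as by counts, and the rows are nearly equally long. Among the genes with fewer counts the order differed in places. In control nuclei SNAR-B2 stood at 2.44 ± 1.76 and SNAR-B1 at 2.34 ± 1.97 CPM per 100 nt (SD, n = 3, where CPM is the count relative to the library total, with totals adjusted by TMM over all 18 libraries). SNAR-C3 at 0.64 ± 0.41, SNAR-C4 at 0.58 ± 0.22 and SNAR-E at 0.53 ± 0.39 CPM per 100 nt came next and did not differ from each other beyond their spread. SNAR-C1, SNAR-C2 and SNAR-C5 lay between 0.04 and 0.07. The snaR-B genes made most of the member counts in every group: snaR-B gave 64.6% to 71.1% of them as a group mean, snaR-C 19.8% to 25.6% and SNAR-E 3.56% to 9.44%.

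The order of the groups depended on the scale. With TMM the sum of the members stood at 11.3 ± 8.12 CPM in control nuc, 2.84 ± 2.04 in control total, 1.77 ± 0.799 in siSSB nuc, 0.776 ± 0.0385 in control cyto, 0.671 ± 0.327 in siSSB total and 0.499 ± 0.335 in siSSB cyto libraries. Of neighbours in this order, control nuc and control total did not overlap, nor did siSSB nuc and control cyto, and the other 3 pairs did. As CPM of the features of at most 500 nt, control nuc was again highest, at 54.2 ± 38.1, control total followed at 30.2 ± 14.5 and control cyto at 23.3 ± 6.13, and siSSB total was lowest, at 10.6 ± 2.01. On that scale every pair of neighbours overlapped. By library size alone control nuc and control cyto were alike, at 2.69 ± 1.86 and 2.67 ± 0.698 CPM. siSSB cyto then stood at 1.97 ± 1.44 and siSSB nuc was lowest, at 0.615 ± 0.250.

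In total RNA the members were lower in siSSB than in control libraries, and snaR-C passed the test. The snaR-B to snaR-I sum went from 301, 97 and 109 counts in control to 36, 32 and 60 in siSSB libraries, or from 2.79 ± 2.12 to 0.634 ± 0.278 CPM after TMM scaling within these 6 libraries (SD, n = 3). The control and siSSB libraries did not overlap, and control replicate 1 stood above the other controls. The log2 fold change was −2.14 ± 0.48 (SE), with no p given for a sum over chosen members. By subfamily it was −2.03 ± 0.44 for snaR-C (adjusted p = 0.0431) and −2.04 ± 0.51 for snaR-B (adjusted p = 0.0796, from edgeR's quasi-likelihood test, adjusted over all features by the Benjamini-Hochberg method). snaR-C thus fell, and snaR-B did not pass the threshold of 0.05 at the same size of difference. Of 14 member rows 3 passed the filter on low counts and 1 was called, where 1.34% of all 13883 features were. That row was SNAR-C3, at −2.20 ± 0.44 (adjusted p = 0.0306). It passed the filter through the control libraries only, with 15, 13 and 19 counts there and 2, 5 and 4 with siSSB, so its call is no support. SNAR-B1 and SNAR-B2, with identical sequences, had −1.94 ± 0.57 and −2.15 ± 0.52. The snaR-A sum gave −2.58 ± 0.51 (adjusted p = 0.0303), which overlaps the snaR-B and snaR-C values within their errors.

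Without control total replicate 1 the difference of the sum was −1.31, and the snaR-C call was lost (adjusted p = 0.0629), as it was without siSSB replicate 1 (0.0987) or 2 (0.158), while no member row was called without any of these or control replicate 2 and 2 were called without control or siSSB replicate 3. Over 5 scalings the difference of the sum ran from −2.59 to −1.38. Relative to the median feature it ran from −2.13 to −1.99, a narrow range because a scaling shifts all features nearly alike. The snaR-C call was lost when scaled to the snoRNA total (adjusted p = 0.230), to short features (0.107) or by library size alone (0.102), as was that of SNAR-C3. SNAR-E was too low for the filter. With every feature of at least 1 count in the fit it was among 5 member rows called lower (−3.54 ± 0.63, adjusted p = 1.58e-05), where 0.546% of 114675 features were called. SNAR-E reached the minimum of the filter in 1 control and 0 siSSB libraries, so its call is no support.

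In nuclei both larger subfamilies fell on knockdown. The snaR-B to snaR-I sum was 197, 642 and 232 counts in control and 41, 69 and 90 in siSSB, or 3.07 ± 2.21 and 0.548 ± 0.252 CPM, with no overlap between the groups. The log2 fold change of the sum was −2.49 ± 0.46. snaR-C changed by −2.53 ± 0.42 (adjusted p = 0.00765) and snaR-B by −2.50 ± 0.48 (adjusted p = 0.0240) by the same test. Of 14 member rows 4 passed the filter and 2 were called, where 0.378% of 6873 features were. SNAR-C4 reached the minimum of the filter in 3 control and 0 siSSB libraries, and SNAR-C3 in 3 control and 1 siSSB libraries. The rows called were SNAR-C4, at −2.48 ± 0.44 (adjusted p = 0.0127), and SNAR-B2, at −2.53 ± 0.46 (adjusted p = 0.0138). SNAR-C4 passed the filter through the control libraries only, so its call is no support. SNAR-B1, of the same sequence as SNAR-B2, stood at −2.46 ± 0.53 (adjusted p = 0.0679). The snaR-A sum changed by −2.33 ± 0.35 (adjusted p = 0.00463), close to the values of snaR-B and snaR-C. SNAR-E, under the filter here too, had −2.46 ± 0.44 (adjusted p = 8.48e-05) with every feature in the fit, where 5 members and 0.0721% of 92966 features were called. It reached the minimum of the filter in 2 control and 0 siSSB libraries, so its call is no support either.

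Without control nuc replicate 2, the nuclear difference of the sum was −1.74, and snaR-B lost its call (−1.65 ± 0.37, adjusted p = 0.0549) while snaR-C kept it. snaR-B also lost its call without siSSB replicate 1 (0.0961) or 2 (0.466), and snaR-C without siSSB replicate 2 (0.250). With 4 other scalings snaR-B lost its call (adjusted p = 0.0592 to 0.134) and snaR-C lost it with all but the miRNA total (0.0920 to 0.127), with differences of −2.23 to −2.13, and with 3 of these scalings no feature of the table was called. No member row was called without siSSB replicate 1 (difference of the sum −2.26, 17 of 7493 features called) or 2 (−2.42, 0 of 7447), and 5 were without control replicate 1 (26 of 7850) or 3 (37 of 8262).

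In the cytoplasm no member row passed the test. The snaR-B to snaR-I sum held 67, 73 and 89 counts in control and 102, 46 and 17 in siSSB libraries, or 2.81 ± 0.41 and 1.85 ± 1.33 CPM. In counts, siSSB replicate 1 lay above the controls and replicates 2 and 3 below them. The log2 fold change was −0.59 ± 0.46 for the sum, −0.56 ± 0.43 for snaR-B (adjusted p = 0.871) and −0.34 ± 0.59 for snaR-C (adjusted p = 0.974). Of the 2 member rows tested neither was called by edgeR or DESeq2 and neither had an unadjusted p under the threshold, where 0.291% of 18921 features were called. The snaR-A sum, at −0.98 ± 0.46 (adjusted p = 0.775), was not called either. Without siSSB cyto replicate 3 the difference of the sum was −0.18, and without replicate 1 it was −1.28.

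**Figure D2:**
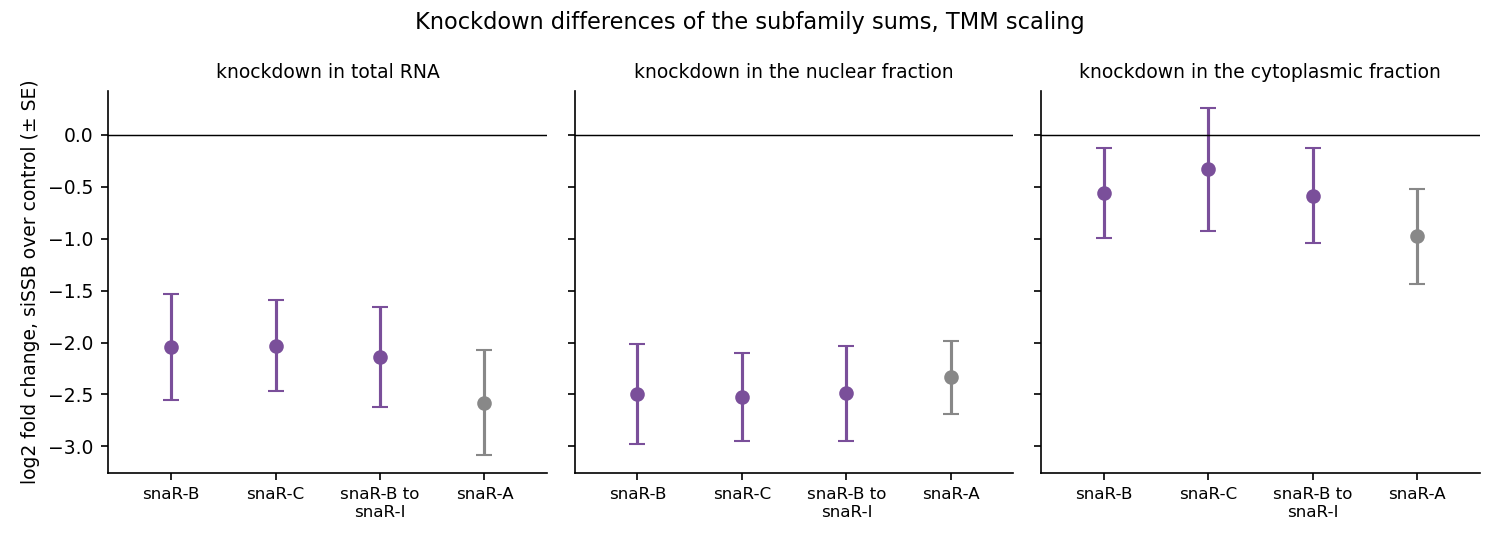
Log2 fold change of siSSB over control (vertical axis, points with SE bars, 6 libraries per panel) for the snaR-B, snaR-C and snaR-B to snaR-I sums in purple and the snaR-A sum in grey, in total RNA, nuclei and cytoplasm. Total and nuclear values lie between −2.58 and −2.03, and cytoplasmic values between −0.98 and −0.34.

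The nuclear and cytoplasmic knockdown differences were compared in 1 fit of the 12 fraction libraries. The nuclear minus the cytoplasmic log2 difference was −2.03 ± 0.61 for snaR-B, −2.30 ± 0.66 for snaR-C and −1.42 ± 0.94 for SNAR-E. None passed the test (adjusted p = 0.959 for each), and of 5 member rows tested none was called by edgeR or DESeq2, against 4 with an unadjusted p under 0.05. Over all features 0.0133% of 37493 were called in this comparison. Without siSSB cyto replicate 3, the library with the fewest cytoplasmic snaR counts, snaR-B (−2.43 ± 0.50, adjusted p = 0.00566) and snaR-C (−2.65 ± 0.59, adjusted p = 0.0194) passed. Without control nuc replicate 2 the values were −1.19 ± 0.59 and −1.79 ± 0.66, and without siSSB cyto replicate 1 they were −1.69 ± 0.60 and −1.07 ± 0.74, with no call. The snaR-A sum had a difference of −1.47 ± 0.50 (adjusted p = 0.959).

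Between fractions the members stood higher in nuclei relative to the median feature, and more so than snaR-A. In control cells the snaR-B to snaR-I sum was 11.4 ± 8.06 CPM in nuclei and 0.620 ± 0.0783 CPM in the cytoplasm after TMM scaling, and the ranges did not overlap. The log2 difference was 4.20 ± 0.41 for the sum, 4.33 ± 0.43 for snaR-B (adjusted p = 1.05e-09), 3.99 ± 0.40 for snaR-C (adjusted p = 1.33e-09) and 4.21 ± 0.49 for SNAR-E (adjusted p = 2.53e-08). The snaR-A sum stood at 1.46 ± 0.33 (adjusted p = 0.000858). All 5 member rows tested were called higher in nuclei, where 23.4% of 26774 features were called in either direction. SNAR-B2 led with 4.45 ± 0.44, followed by SNAR-C4 with 4.30 ± 0.43, SNAR-E, SNAR-B1 with 4.20 ± 0.46 and SNAR-C3 with 3.99 ± 0.45, all within their errors of each other. Without control nuc replicate 2 the difference of the sum was 3.49, and all 3 member rows then tested were called higher. SNAR-C4 and SNAR-E then fell under the filter.

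The sign of this difference depends on the scaling. Over 5 scalings the difference of the sum ran from 4.20 with TMM through 0.022 with library size alone to −1.79 with the snoRNA total, where all 5 member rows were called lower in nuclei, as were most features. A scaling shifts all features nearly alike, so the median of all features moved with it. Relative to that median the members stood 4.31 to 4.48 higher in nuclei, against 1.60 to 1.74 for snaR-A. The agreement over the 5 scalings follows from the shared shift and is no separate support. In siSSB cells the sum differed by 2.17 ± 0.45 with TMM, from 0.512 ± 0.348 CPM in cytoplasm to 2.34 ± 1.10 CPM in nuclei. It ran down to −3.75 with the snoRNA total, where both rows tested were called lower, and stood 2.22 to 2.36 above the median feature under each scaling, against −0.12 to 0.14 for snaR-A. There snaR-B differed by 2.25 ± 0.44 (adjusted p = 0.000243), snaR-C by 1.65 ± 0.53 (adjusted p = 0.0217) and the snaR-A sum by −0.05 ± 0.37 (adjusted p = 0.943) with TMM. Both member rows tested, SNAR-B1 and SNAR-B2, were called higher in nuclei. Of 26274 features 25.3% were called in either direction, 2842 of them higher and 3809 lower. snaR-C lost its call without siSSB cyto replicate 3 (adjusted p = 0.0501).

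**Figure D3:**
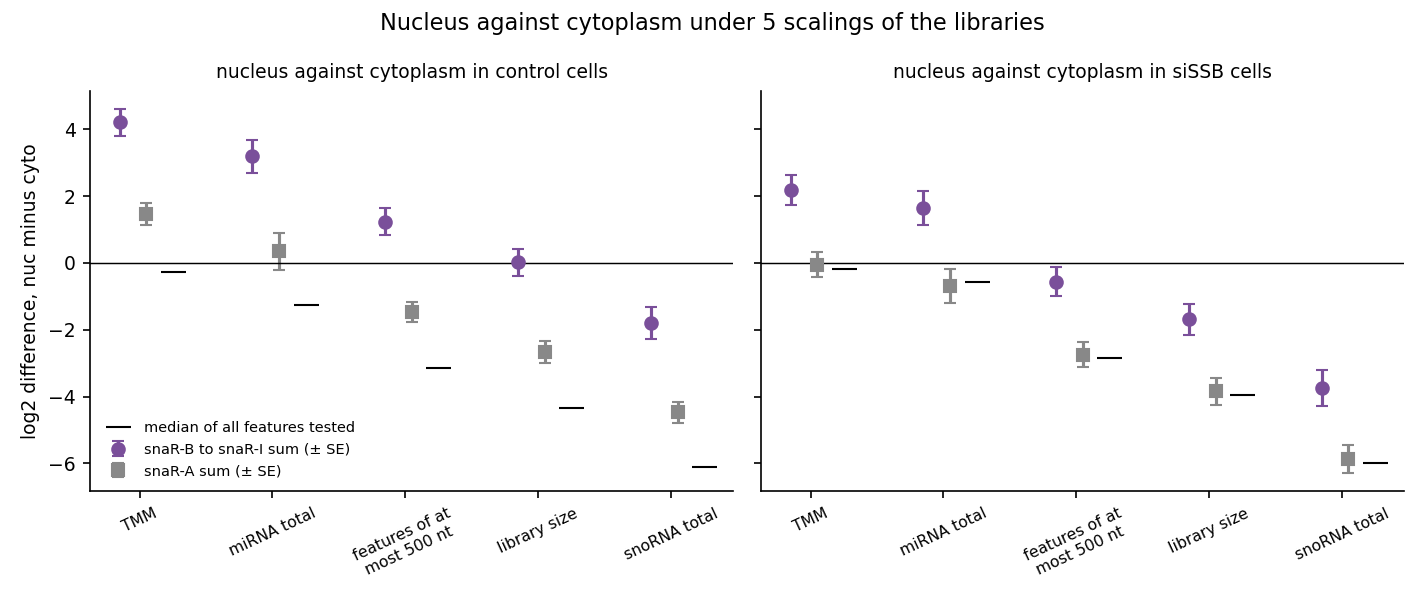
Log2 difference of nuc minus cyto (vertical axis) under 5 ways of scaling the libraries (horizontal axis), for the snaR-B to snaR-I sum (purple, ± SE), the snaR-A sum (grey, ± SE) and the median of all features tested (dashes), in control and siSSB cells. The values slide down together from TMM to the snoRNA total, from 4.20 to −1.79 for the members in control cells. The members stay above snaR-A and the median throughout, since a scaling shifts all of them nearly alike.

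A measure that needs no scaling is the share of snaR-B to snaR-I among all snaR counts of the same library. It takes the placement of reads between members and snaR-A as counted. Control nuclei had 2.08%, 11.6% and 1.78%, and control cytoplasm 0.649%, 0.715% and 0.441%. In siSSB cells it was 2.68%, 2.88% and 4.54% in nuclei and 1.05%, 0.503% and 0.759% in the cytoplasm. Every nuclear library lay above every cytoplasmic and total library. Put as counts, there were 7.65 to 55.1 snaR-A counts for each member count in control nuclei and 139 to 226 in control cytoplasm. The difference of the means was 4.54 points in control and 2.59 points in siSSB cells, each with p = 0.1 by an exact two-sided permutation test, the smallest that 3 against 3 libraries allow (0.25 after adjustment over 5 comparisons). Without control nuc replicate 2 the control difference was 1.33 points, still with no overlap.

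Each of the 3 larger subfamilies showed this pattern in control cells. snaR-B made 1.20% to 8.46% of snaR counts in nuclei and 0.288% to 0.460% in cytoplasm, snaR-C 0.369% to 2.09% and 0.104% to 0.186%, and SNAR-E 0.137% to 0.918% and 0.0294% to 0.0582%. In siSSB cells the ranges also stood apart, at 1.89% to 3.23% and 0.416% to 0.596% for snaR-B, 0.457% to 0.807% and 0.0657% to 0.360% for snaR-C, and 0.208% to 0.404% and 0.0109% to 0.0719% for SNAR-E. When libraries were scaled to the snaR-A sum, an alternative chosen after seeing the data, snaR-B stood 3.37 ± 0.63 higher in control nuclei than in control cytoplasm on the log2 scale (adjusted p = 1.29e-06), snaR-C 2.95 ± 0.64 (3.18e-05) and SNAR-E 3.22 ± 0.67 (1.58e-05). In this scaling 57.0% of features were called, and 1330 of those 15249 were higher in nuclei. Without control nuc replicate 2 the values were 1.73 ± 0.51 for snaR-B (adjusted p = 0.00441) and 1.81 ± 0.51 for snaR-C (adjusted p = 0.00300), where 66.5% of features were called. In siSSB cells they were 2.27 ± 0.94 (adjusted p = 0.109) and 1.64 ± 0.95 (adjusted p = 0.366), which did not pass.

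No difference between the members and snaR-A on knockdown was detected. Their share of snaR counts was 0.555%, 0.362% and 0.388% in control total and 0.474%, 0.939% and 0.700% in siSSB total libraries, which overlap (exact permutation p = 0.2). In nuclei the shares given above overlapped as well (exact permutation p = 1.0), with a mean difference of −1.78 points that became 1.43 without control nuc replicate 2. In the cytoplasm the exact permutation p was 0.4. Scaled to snaR-A, the knockdown difference of the sum was 0.69 ± 0.81 in total RNA, −0.69 ± 0.55 in nuclei (0.82 ± 0.53 without control nuc replicate 2) and 0.36 ± 0.86 in cytoplasm. snaR-B by itself had 0.78 ± 0.83 in total RNA (adjusted p = 0.348) and −0.72 ± 0.56 in nuclei (adjusted p = 0.204). Differences of this size could not be told from 0 with these errors. Any snaR-A reads placed in member rows also enter these values, and how many was not tested.

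**Figure D4:**
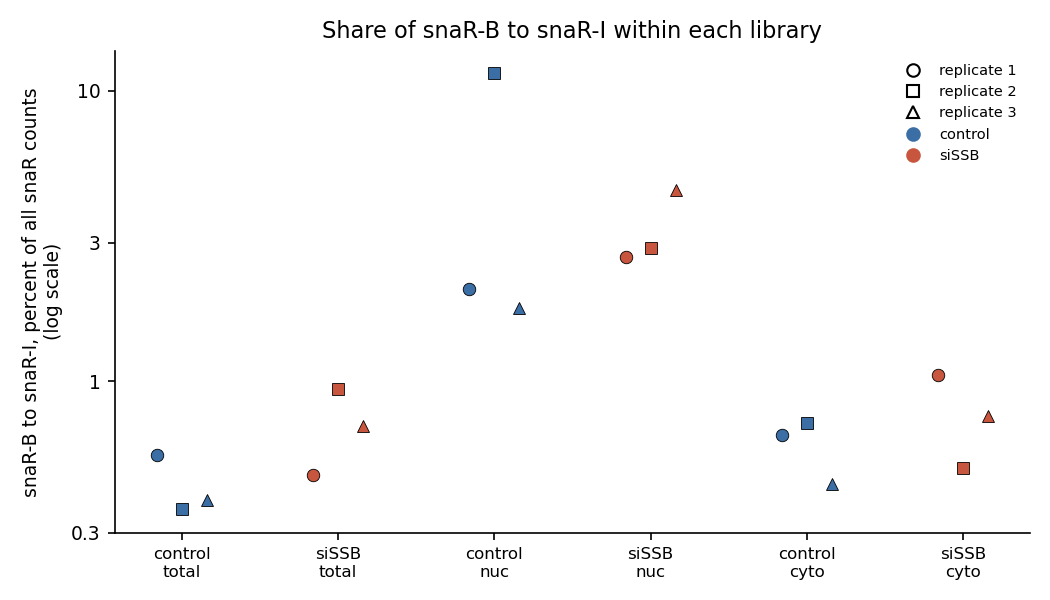
Counts of snaR-B to snaR-I as a percentage of all snaR counts (vertical axis, log scale) in each of the 18 libraries, by group, with control in blue and siSSB in red and 1 symbol for each replicate. All 6 nuclear libraries lie at 1.78% or higher and the other 12 at 1.05% or lower.

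Other Pol III RNAs, from a list of 15 RNAs of single or few gene copies, give the setting. In total RNA 12 of the 15 were tested, 3 were called lower on knockdown and none higher, with a median difference of −0.34. The 3 were the vault RNAs VTRNA1-1 (−2.25 ± 0.34), VTRNA1-2 (−2.58 ± 0.38) and VTRNA1-3 (−1.67 ± 0.37), components of a large cytoplasmic ribonucleoprotein. In nuclei VTRNA1-1 (−1.80 ± 0.27) and VTRNA1-2 (−1.91 ± 0.31) were called lower, and in the cytoplasm the same RNAs (−1.83 ± 0.28 and −2.28 ± 0.29). No other RNA of the list was called in a knockdown comparison. Between fractions of control cells, with TMM, 4 of 14 tested were called higher in nuclei (RMRP, RPPH1, RN7SL1 and RN7SL2, at 2.06 to 3.05) and 8 lower, with a median of −1.40. The snaR-B, snaR-C and SNAR-E differences of 3.99 to 4.33 lay above all of these.

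Over the 18 libraries the row whose level most resembled the snaR-B to snaR-I sum was SNORD36C (chr9:133350822-133350937, plus strand), a box C/D snoRNA, with Pearson r = 0.89 on the log2(CPM + 1) scale among 3561 rows of at least 50 mean counts that overlap no snaR row. Its counts in total RNA were 1246, 658 and 612 with the scramble siRNA and 196, 139 and 242 with siSSB. The next 4 were lnc-HYAL4-1 and ENSODEG00000025198.1, which lies inside it, a row on chromosome 12 and a U6 row on chromosome 14. They stood at r = 0.87 to 0.88 (0.79 to 0.80 without control nuc replicate 2). The chromosome 12 row is named for SRP RNA but is 269871 nt long, so its counts need not come from an SRP RNA. The counts of lnc-HYAL4-1 ran only from 50 to 175, and the scaling factors are shared by all rows. snaR-A had r = 0.52, and 0.66 without control nuc replicate 2, where SNORD36C had 0.91. These correlations are descriptions, as all rows share library depth and group structure.

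Members also lie inside longer rows, whose counts then hold theirs. ENSG00000287001.1, a noncoding row of 11422 nt around SNAR-B2 and SNAR-D (chr19:50136834-50148255, minus strand), had 1179 counts, of which 69.0% could come from those members. It was called lower in nuclei on knockdown (−2.36 ± 0.40, adjusted p = 0.00837). Outside the members it kept 13 to 31 counts in control nuc and 6 to 10 in siSSB nuc libraries. The longer lnc-IZUMO2-2 row (54851 nt, 120959 counts) also spans SNAR-B1, SNAR-B2 and SNAR-D, but 96.0% of its counts could come from the 8 snaR-A rows inside it and 1.31% from the members. SNAR-H lies inside 5 longer rows and could give 6.52% to 68.2% of their counts.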

How the data were processed

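The authors prepared small RNA libraries with a NEBNext kit and deposited raw counts per noncoding RNA interval of hg38, with a replicate column for each of the 18 libraries. The submitters' processing notes name Bowtie2 and bedtools. Versions, strand use and the placement of reads with several positions are not given in the sources used here for these libraries. Whether replicates were separate cultures is known only from the study calling them biological.

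Member rows were matched by name, checked by coordinates against RefSeq, and summed by subfamily letter, the sums being tested at the dispersion trend of all features and adjusted together with them. The subfamily sums and the highest row of each subfamily that passed the filter are named with full values, as are 15 other Pol III RNAs where called and the 5 rows most alike. Members and lists were chosen with earlier results of these data known. Pairs of groups (6 libraries, or 12 for the difference between fractions) were fitted with edgeR 4.0.16 (limma 3.58.1, R 4.3.3), with filterByExpr, TMM, the quasi-likelihood test and Benjamini-Hochberg adjustment at 0.05. SE is the log2 fold change divided by the root of F. Shares of snaR counts were compared with exact two-sided permutation tests in scipy 1.17.1. Alternatives were DESeq2 1.42.0, other scalings, no filter, all 18 libraries, a replicate block, each replicate left out and, chosen after seeing the data, scaling to snaR-A. On simulated data for the knockdown in total RNA (14319 features) the test recovered 91.7% of features lowered by 2 on the log2 scale and 100% of those changed by 3, and 4.88% of its calls were false. The simulation gave every feature the same spread, which was not taken from these libraries. It changed only features with more counts than most member rows, so its rates do not carry over to the members. Sequences were read with pysam 0.24.0 and aligned with Biopython 1.88, under Python 3.11.15 with numpy 2.4.6 and pandas 2.3.3.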

Additional observations from a re-analysis of the deposited data

How the results depend on the processing

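Calls depended on the scaling, and the cause of each change below was not tested. In total RNA 1 member row and 186 of 13883 features were called, the member lower. The number of members was 0 when scaled to library size, the snoRNA total, the total of features up to 500 nt (697 to 717 features called) or the snaR-A sum (13341). It was 3 with the miRNA total (2785) or DESeq2 (266), 5 without a filter (626 of 114675) and 2 with all 18 libraries (169 of 37883). Scaled to snaR-A, an alternative chosen after seeing the data like all snaR-A scalings here, the sum of the members differed by 0.69 and snaR-C by 0.72. In nuclei 2 were called lower, of 26 features called. The number was 0 with library size, snoRNA and short-feature scaling, where 0 of 6873 features were called, with the miRNA total (18 called) and with snaR-A scaling (6683), 5 without a filter (67 of 92966) and 4 with all libraries (25 of 37883). Scaled to snaR-A the sum differed by −0.69, and without control nuc replicate 2 by 0.82, with snaR-B at 0.92, snaR-C at 0.48 and 0 rows called. In the cytoplasm the sum differed by 0.36 when scaled to snaR-A.

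Between the fractions of control cells the sum differed by 0.022 with library size, −1.79 with snoRNA, 3.19 with miRNA, 1.23 with short-feature and 3.22 with snaR-A scaling, and by 1.71 with the last and without control nuc replicate 2. The 5 member rows tested were called higher. With library size 0 were called, with the snoRNA total 0 were called higher and all 5 lower (26316 of 26774 features called, 208 of them higher), and with snaR-A scaling and without control nuc replicate 2 the 3 then tested were called higher. With library size snaR-C stood at −0.17 and snaR-A at −2.67. With the snoRNA total snaR-B stood at −1.66, snaR-C at −1.97, SNAR-E at −1.59 and snaR-A at −4.47, and with short features snaR-A at −1.47. In siSSB cells the sum differed by −1.69 with library size, −3.75 with snoRNA and −0.57 with short-feature scaling. snaR-B stood at −1.59, −3.63 and −0.48 and snaR-C at −2.16, −4.23 and −1.04 in that order. Both rows tested there were called higher. With library size or the snoRNA total 0 were called higher and both lower, with short-feature or snaR-A scaling 0 were called, and with all libraries 4 of 5 tested were called higher. snaR-C also lost its call there with the miRNA total (adjusted p = 0.147 by edgeR). The difference of the knockdown between fractions was −1.06 with snaR-A scaling, and 0.46 with that and without control nuc replicate 2.

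With single libraries left out, the sum ranged from −2.54 to −1.31 in total RNA (0 to 2 rows called), from −2.97 to −1.74 in nuclei (0 to 5), from −1.28 to −0.18 in the cytoplasm (0 to 0), from 3.49 to 4.58 between control fractions (3 to 5), from 1.75 to 2.72 between siSSB fractions (2 to 3) and from −2.45 to −1.24 for the difference between fractions (0 to 2). Differences of the share of snaR counts ranged from 0.152 to 0.384 points in total RNA, −3.45 to 1.43 in nuclei, 0.0291 to 0.301 in the cytoplasm, 1.33 to 6.22 between control fractions and 2.01 to 2.94 between siSSB fractions.

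Replicate numbers paired the samples weakly at most: over 15 pairs of same-numbered libraries the correlation of their deviations from the group means ran from −0.67 to 0.26, with 5 over 0.1. In 7 pairs it was above that with any other number. Between fractions of control cells it was 0.09, 0.12 and 0.14, each above the best other number. In siSSB cells it was −0.05, 0.13 and 0.06, where only the first lay below the best other number. With the replicate block the sum differed by −1.96 in total RNA (3 rows called, and snaR-B at −1.84 with adjusted p = 0.0412 by edgeR) and −2.34 in nuclei (4 rows called), and the block changed no other count of called rows. At 2300 counts over 18 libraries depth limits every subfamily, and all those other than snaR-B, snaR-C and SNAR-E were too low to compare.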
